A study of Danio rerio with 24 samples.

Results

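Whole zebrafish larvae (Danio rerio, wildtype AB strain) kept in uranyl nitrate at 300 µg/L were compared with larvae kept in vehicle by sequencing of polyadenylated RNA. The exposed group was placed in uranyl nitrate at 4 hours after fertilization and collected at 5 days after fertilization. The vehicle group was kept over the same time in the same diluted Danieau's medium without metal. Each group held 4 libraries, each made from a pool of 10 whole larvae, and these 8 of the 24 libraries of the series were chosen by their labelled treatment alone. Pools exposed to the lower uranyl nitrate dose, 30 µg/L, and pools exposed to 10 µM sodium arsenite (4 pools each, same strain, age and exposure time) were used where the difference from another dose or another metal was tested. The labels call the pools biological replicates but do not say whether they came from separate clutches. The remaining groups of the series, 4 pools each, received 1 µM sodium arsenite alone or 1 µM sodium arsenite together with 30 µg/L uranyl nitrate. These groups entered the shared fit, the choice of genes tested and the principal components. They are also among the other pools of the series with which single genes are compared below, so some of those pools received uranyl nitrate. The p-values rest on the spread between pools within all 6 groups of the series, which may in part be technical.

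Uranyl nitrate is a soluble salt that releases the uranyl ion, the form in which uranium occurs in oxygenated water. In mammals the kidney tubule is the tissue best known to be damaged by it. A larva at this age is still growing: cells divide in the margin of the retina, the brain, the gut and the skin, and their replication and mitosis genes can be read in RNA of the whole animal. FOXO transcription factors and the glucocorticoid receptor switch on a separate set of genes when insulin signalling is low or cortisol is high, among them brakes on growth and on glucose use. In RNA of whole larvae, fewer cells of a type and less RNA per cell cannot be told apart.

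The recovered depth was 16542195 to 21585725 reads in the 4 libraries at 300 µg/L and 16581490 to 22987089 in the 4 vehicle libraries. Levels are given in FPKM (fragments per kilobase of gene, scaled to library size), as means ± SD of 4 pools or pool by pool. Each fold change is the exposed mean minus the vehicle mean on the log2(FPKM + 1) scale, with its standard error (SE) and is smaller than the true change where FPKM is low. Adjusted p-values come from limma and cover all 22682 genes tested, and genes below 0.05 were called. On the first principal component of all 24 libraries (9.61% of the variance) the pools at 300 µg/L lay at 12.3 to 24.02 and all 20 other pools at or below 7.34.

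Uranyl nitrate at 300 µg/L changed 402 genes, of which 199 (0.877% of the genes tested) were higher and 203 (0.895%) were lower than in vehicle. Without adjustment, 3754 genes had a p under 0.05. The changes were small: the median absolute log2 fold change of the called genes was 0.37, 10% of them were above 0.64, and 7 genes reached 1. In 387 of the 402, all 4 exposed pools lay on one side of all 4 vehicle pools, as they did in 9.75% of all genes tested. The number of calls depended on single pools. It was 154, 138 and 94 without exposed replicate 1, 2 or 4, it was 63, 91 and 68 without vehicle replicate 1, 3 or 4, and it was 769 without vehicle replicate 2. Every called gene kept its direction in all 8 of these fits, and 42 genes (32 higher, 10 lower) were called in each of them. Fitted alone, with their own spread, these 2 groups gave 96 calls. Among them were 10 immediate early genes, 7 fasting, FOXO and glucocorticoid response genes and 6 replication and mitosis genes. The inflammation list had 3, the clock list 2 and the amino acid transporters 2. The share of calls that were higher was 49.5%, but 69.2% after rescaling to the same total and 62.2% with voom on the recovered reads.

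Called genes that were higher had a median length of 2957 bases and those that were lower a median of 2040, against 2264 over all genes tested. The median log2 fold change was -0.03 in the 10% shortest genes and 0.01 in the 10% longest. The part of gene length in the calls was not tested.

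**Figure D1:**
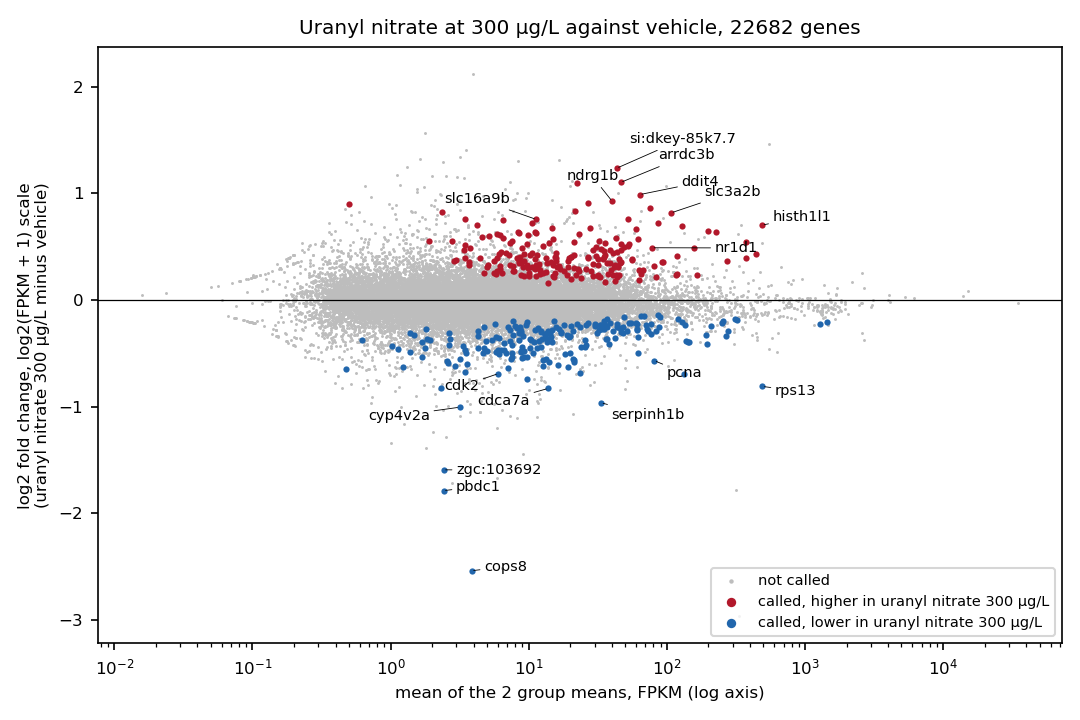
Each point is 1 of the 22682 genes tested, with the mean FPKM of both groups on a log x axis and the log2 fold change of uranyl nitrate at 300 µg/L over vehicle on the y axis. Red points (199) were called higher and blue points (203) lower, and 7 of them lie 1 log2 unit or more from 0.

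The genes of DNA replication and mitosis were lower at 300 µg/L. Of 50 genes of this list that were tested, 17 fell, none rose, and 49 had a negative fold change. The median log2 fold change of the list was -0.41, against -0.005 over all genes. In every exposed pool the median member lay 0.29 to 0.54 log2 units below the vehicle mean, whereas vehicle replicate 2, the lowest of its group, lay 0.17 below it. The count of 17 was 7, 3, 17 and 1 without exposed replicates 1 to 4, and 1, 27, 1 and 1 without vehicle replicates 1 to 4, while the median stayed between -0.36 and -0.47.

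The cyclin-dependent kinase gene cdk2, which drives entry into S phase, had 3.85, 4.56, 5.35 and 3.74 FPKM at 300 µg/L, against 8.55, 6.98, 6.69 and 8.38 in vehicle. Every exposed pool lay below every one of the other 20 pools of the series. This held for 61 of the 203 genes called lower and for 120 of all 22682 genes tested. The fold change of cdk2 was -0.69 (SE 0.12, adjusted p 0.00874), and cdk2 was the member of the list called in all 8 fits without 1 library.

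Of the MCM helicase, the ring that unwinds DNA ahead of the fork, 5 genes were called. The fold changes were -0.69 for mcm2, -0.61 for mcm3, -0.56 for mcm4, -0.58 for mcm5 and -0.63 for mcm6, with adjusted p-values of 0.0177 to 0.0226. The remaining subunit gene mcm7 was at -0.31 and was not called (adjusted p 0.0601). For mcm5 the pools at 300 µg/L had 18.2, 16.6, 17.5 and 14.9 FPKM, against 25.5, 20.7, 27.1 and 30.0 in vehicle. The groups did not overlap, and vehicle replicate 2 was the vehicle pool nearest to the exposed ones. The sliding clamp gene pcna had 68.0, 63.9, 65.5 and 63.0 FPKM at 300 µg/L, against 98.8, 83.4, 105.8 and 101.5 in the vehicle pools (log2 fold change -0.57, SE 0.12, adjusted p 0.024).

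Among genes for enzymes that make DNA precursors, 3 called ones are given here. The thymidylate synthase gene tyms averaged 7.03 ± 0.44 FPKM at 300 µg/L and 12.4 ± 1.61 in the vehicle pools (log2 fold change -0.74, adjusted p 0.022). The large subunit of ribonucleotide reductase, rrm1, had a fold change of -0.55 (adjusted p 0.0344). The dihydrofolate reductase gene dhfr, from outside the list, averaged 7.67 ± 0.47 FPKM at 300 µg/L and 11.6 ± 1.67 in vehicle (-0.54, adjusted p 0.0209). The dUTPase gene dut, in the list, had a fold change of -0.885 but was not called (adjusted p 0.113).

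Members with roles in mitosis fell as well. They included the mitotic kinase gene aurkb (-0.50, adjusted p 0.0258), the cyclin gene ccna2 (-0.50, adjusted p 0.0334), the spindle factor gene tpx2 (-0.49, adjusted p 0.0468) and cdc20, an activator of the anaphase-promoting complex (-0.49, adjusted p 0.0283). For cdc20 the groups overlapped, since exposed replicate 3 (3.65 FPKM) lay above vehicle replicate 2 (3.29 FPKM). In a wider family of kinetochore and spindle genes, put together after the values were seen, 8 of 53 genes fell and 52 were negative. Among them were the kinetochore genes spc24 (-0.62, adjusted p 0.0209) and spc25 (-0.67, adjusted p 0.0258) and the kinesin gene kifc1 (-0.49, adjusted p 0.0204). That count ran from 0 (without exposed replicate 2, or vehicle replicate 1 or 3) to 11 (without vehicle replicate 2).

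Genes that act at the fork, in DNA repair and in chromatin assembly behind the fork were also lower. In a family of 47 such genes, also put together after the values were seen, 16 fell, none rose, and the median log2 fold change was -0.35. The count was 2 to 7 without vehicle replicate 1, 3 or 4 or exposed replicate 1, 2 or 4, 17 without exposed replicate 3 and 21 without vehicle replicate 2.

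The gene cdca7a, whose human counterpart partners a nucleosome remodeller, had 11.11, 7.80, 9.49 and 10.5 FPKM at 300 µg/L, against 18.2, 15.5, 18.5 and 19.6 in the vehicle pools (log2 fold change -0.83, SE 0.14, adjusted p 0.00721). The histone chaperone gene nasp had 9.05, 10.7, 10.6 and 9.82 FPKM at 300 µg/L, against 16.3, 15.0, 15.1 and 14.8 in vehicle (-0.56, SE 0.10, adjusted p 0.0102). Both genes showed a clear gap between the groups and were called in all 8 fits without 1 library.

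The clamp loader gene rfc4 (-0.50, adjusted p 0.014), the primase gene prim1 (-0.55, adjusted p 0.014), the single-strand binding protein gene rpa1 (-0.37, adjusted p 0.0177), the chromatin assembly factor gene chaf1a (-0.51, adjusted p 0.0177) and uhrf1, which helps to copy DNA methylation (-0.55, adjusted p 0.0252), fell too. Of these, prim1 overlapped between the groups, with exposed replicate 3 (7.19 FPKM) just above vehicle replicate 2 (7.18 FPKM).

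Some chromatin protein genes, picked after their values were seen, were lower as well. The DNA-bending protein gene hmgb2a had 166.0, 162.0, 181.2 and 173.4 FPKM at 300 µg/L, against 213.2, 203.8, 217.1 and 222.6 in vehicle (-0.33, SE 0.06, adjusted p 0.0129). It lay below all 20 other pools of the series in each exposed pool, and its call was lost without vehicle replicate 4 (adjusted p 0.0596). Its paralog hmgb2b (-0.40, adjusted p 0.0372) and the heterochromatin protein genes cbx3a (-0.25, adjusted p 0.0264) and cbx5 (-0.29, adjusted p 0.0451) were lower too.

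**Figure D2:**
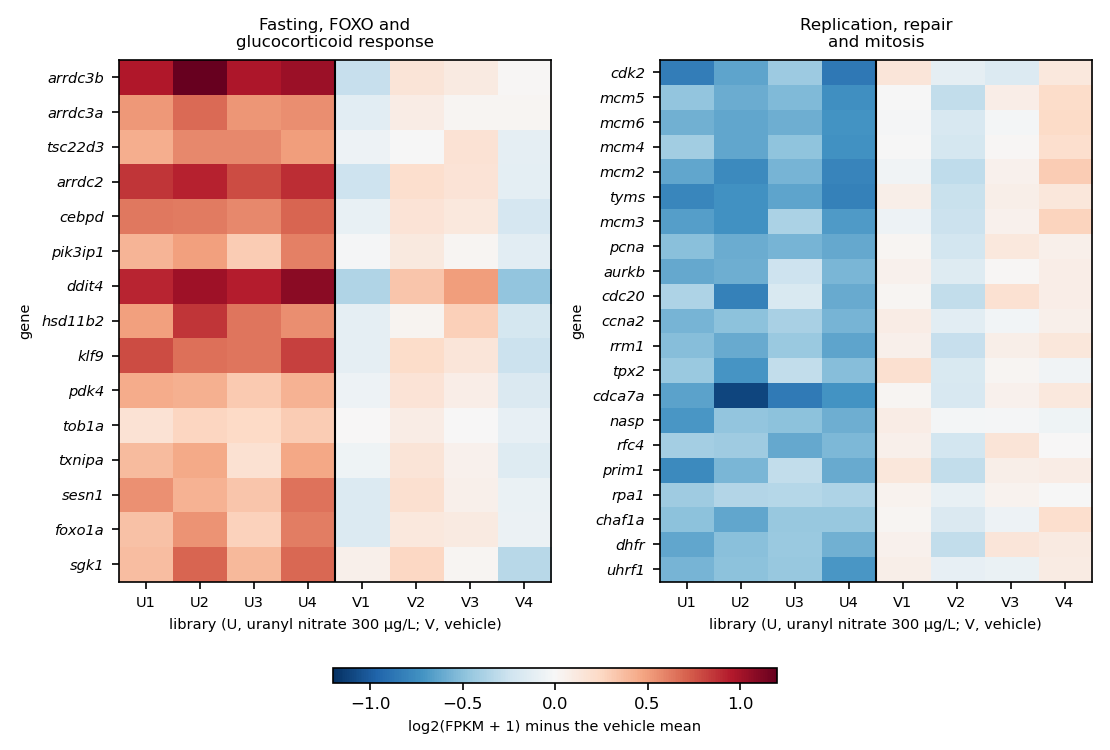
Colour gives log2(FPKM + 1) minus the vehicle mean of the gene, with 1 column per pool (U, uranyl nitrate at 300 µg/L, left of the line; V, vehicle) and 1 row per called gene. The left panel is mostly red and the right panel mostly blue over the exposed pools. This follows from the choice of rows, since only genes called higher (left) or lower (right) are shown. Some rows on the right were picked after their values were seen. The median member of the whole replication and mitosis list was at -0.29 to -0.54 in these pools and at -0.17 in vehicle replicate 2.

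The list of fasting, FOXO and glucocorticoid response genes moved the other way. Of 49 genes tested, 15 rose and none fell, 4 had a negative fold change, and the median log2 fold change was 0.355. The median member of the list lay 0.24 to 0.41 log2 units above the vehicle mean in the exposed pools. In the vehicle pools it lay between -0.13 and 0.09. The count of 15 was 8, 7, 13 and 6 without exposed replicates 1 to 4, and 5, 21, 9 and 5 without vehicle replicates 1 to 4.

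The arrestin-domain genes encode adaptors that bring ubiquitin ligases to membrane proteins, and in mammals TXNIP and ARRDC4 of the same family limit glucose uptake. Here arrdc3b had 57.2, 81.0, 57.4 and 59.6 FPKM at 300 µg/L, against 23.6, 32.3, 31.2 and 29.1 in the vehicle pools (log2 fold change 1.103, SE 0.10, adjusted p 2.65e-06). Its paralog arrdc3a had 71.6, 80.4, 72.3 and 73.4 FPKM at 300 µg/L, against 45.3, 52.7, 50.4 and 50.4 in vehicle (0.57, SE 0.06, adjusted p 3.51e-05). For both, the lowest exposed pool lay well above the highest vehicle pool. The related arrdc2 averaged 96.7 ± 3.95 FPKM at 300 µg/L and 53.2 ± 8.11 in vehicle (0.86, SE 0.11, adjusted p 0.000556). The gene txnipa, a zebrafish TXNIP gene, rose by less (0.37, adjusted p 0.0372).

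Genes that glucocorticoids induce in mammals were among the members that rose. The anti-inflammatory leucine zipper gene tsc22d3 had 52.2, 57.8, 57.6 and 54.6 FPKM at 300 µg/L, against 36.7, 38.1, 43.2 and 35.6 in vehicle (0.52, SE 0.07, adjusted p 0.000551). The transcription factor gene klf9 had 112.0, 102.9, 101.3 and 114.9 FPKM at 300 µg/L, against 60.1, 75.5, 71.7 and 53.8 in vehicle (0.73, SE 0.16, adjusted p 0.0226). The groups of both genes were apart, with the wider spread in klf9. The transcription factor gene cebpd (0.63, adjusted p 0.0101), the kinase gene sgk1 (0.54, adjusted p 0.0488) and hsd11b2, whose product inactivates cortisol (0.64, adjusted p 0.0204), were higher as well.

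The growth brake ddit4, an inhibitor of the TORC1 kinase, had 79.4, 85.8, 81.0 and 89.8 FPKM at 300 µg/L, against 32.4, 52.8, 59.6 and 29.8 in vehicle. The exposed pools were close together and the vehicle pools fell into a lower and a higher pair, all below the exposed ones. The fold change was 0.99 (SE 0.20, adjusted p 0.016), and its call was lost without exposed replicate 4 or vehicle replicate 1 or 4 (adjusted p of at most 0.0761). The remaining called members were pik3ip1, an inhibitor of phosphoinositide 3-kinase (0.45, adjusted p 0.016), sesn1, a sensor of amino acids upstream of TORC1 (0.49, adjusted p 0.0393), tob1a, an antiproliferative gene (0.25, adjusted p 0.0372), pdk4, which shuts pyruvate out of oxidation (0.40, adjusted p 0.0372), and the transcription factor gene foxo1a (0.45, adjusted p 0.0406). From outside the list, foxo4 (0.33, adjusted p 0.0451) and the TORC1 inhibitor gene deptor (0.18, adjusted p 0.0453) were called higher.

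Beyond these lists, 3 families with called genes were put together after the values had been seen. In the first, amino acid transporters, 5 of 62 genes rose and none fell. Of the 62, 19 had a negative fold change, and the median was 0.06. The heavy chain gene slc3a2b, whose product pairs with only some of these transporters, had 133.2, 142.8, 130.6 and 141.7 FPKM at 300 µg/L, against 69.2, 83.0, 94.5 and 65.6 in vehicle (0.82, SE 0.13, adjusted p 0.00249). The cationic amino acid transporter gene slc7a3a (0.39, adjusted p 0.00385) and the neutral amino acid transporter genes slc43a2a (0.76, adjusted p 0.0102), slc7a8a (0.51, adjusted p 0.0269) and slc1a5 (0.49, adjusted p 0.0393) rose too. The first 3 of the 5 were called in all 8 fits without 1 library.

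In the second family, linker histones, both genes described here were higher. The gene histh1l1 had 567.4, 709.8, 577.9 and 571.4 FPKM at 300 µg/L, against 309.1, 445.4, 402.1 and 341.2 in vehicle (0.70, SE 0.10, adjusted p 0.00196). The gene h1-10 had 149.1, 176.4, 154.3 and 151.7 FPKM at 300 µg/L, against 80.7, 117.1, 108.1 and 86.6 in vehicle (0.69, SE 0.10, adjusted p 0.00185). In both, replicate 2 was the highest pool of its own group, in exposed and in vehicle pools alike. Histone genes have near-identical copies, and how shared reads were assigned is not given in the sources used here.

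The third family, monocarboxylate transporters, had 3 of 17 genes higher and none lower. Of the 17, 7 had a negative fold change, and the median was 0.13. The gene slc16a9b had 13.6, 17.97, 14.8 and 11.6 FPKM at 300 µg/L, against 7.18, 9.91, 8.04 and 7.47 in vehicle (0.76, SE 0.11, adjusted p 0.00218). With slc16a6b, whose paralog slc16a6a exports ketone bodies from the liver, the values averaged 8.43 ± 2.02 FPKM at 300 µg/L and 4.53 ± 0.41 in vehicle (0.75, adjusted p 0.00447). Both were called in all 8 fits without 1 library, and slc16a9a (0.82, adjusted p 0.0365) in 2 of them. None of the 3 was called in the fit of only the 2 groups, and neither were the linker histone genes.

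**Figure D3:**
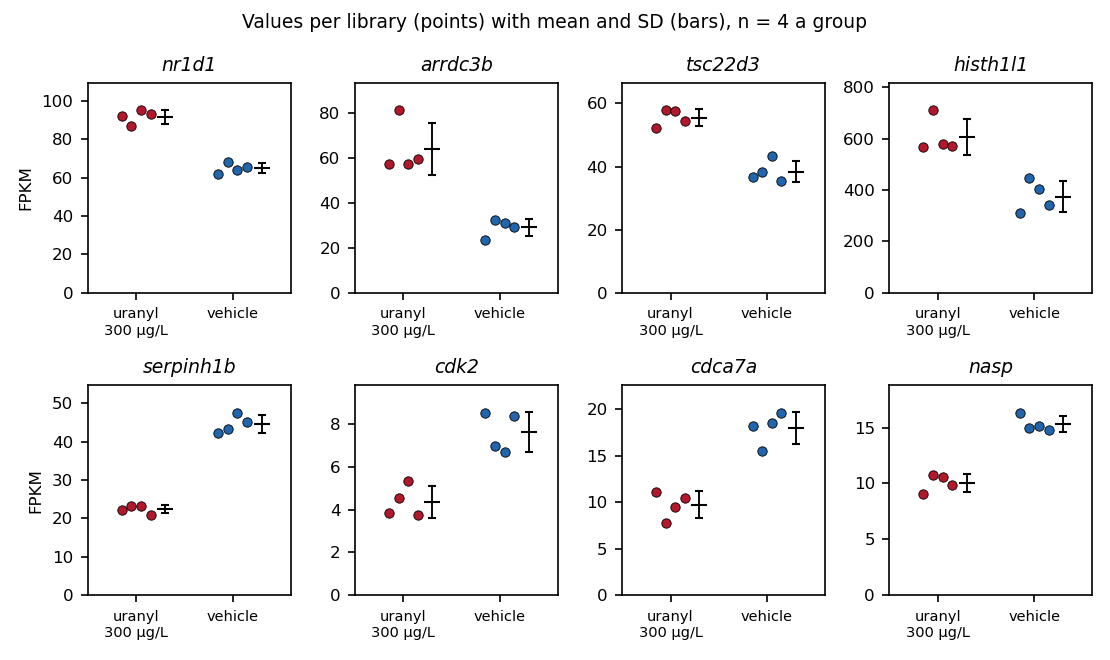
FPKM in each pool (points) with the mean and SD of 4 pools (bars) for 4 genes that were higher and 4 that were lower, with uranyl nitrate at 300 µg/L left of vehicle. In none of the 8 panels do the groups overlap, but the rule that named genes by the smallest p took only genes without overlap. The single high exposed pool of arrdc3b and histh1l1 is replicate 2.

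Clock genes included the gene with the smallest p of the whole comparison. The transcriptional repressor gene nr1d1, which closes the second loop of the circadian oscillator, had 91.8, 86.7, 95.004 and 93.2 FPKM at 300 µg/L, against 62.1, 68.3, 64.0 and 65.6 in vehicle (0.49, SE 0.04, adjusted p 4.92e-07). Its paralog nr1d2a had 57.3, 62.6, 67.5 and 64.4 FPKM at 300 µg/L, against 41.6, 45.1, 46.5 and 40.6 in vehicle (0.52, SE 0.05, adjusted p 1.54e-05). All exposed pools were above all vehicle pools for both. Of 43 clock genes tested, 6 rose and none fell, with a median of 0.10. The others were the repressor gene bhlhe40 (0.24, adjusted p 0.00381), the clock inhibitor gene ciarta (0.24, adjusted p 0.0267), and nfil3-6 (0.73, adjusted p 0.0269) and nfil3-2 (0.35, adjusted p 0.0468), 2 basic leucine zipper genes. Both nr1d genes and bhlhe40 were called in all 8 fits without 1 library, and the list's count was 3 without exposed replicate 2 or 4 or vehicle replicate 1, 3 or 4. In arsenite at 10 µM against the same vehicle pools, 5 clock genes were called higher and 0 lower (median 0.09). Over all 22682 genes tested, that comparison called 135 higher and 30 lower (median 0.008). Between uranyl nitrate at 300 µg/L and arsenite, 1 clock gene was called higher and 0 lower (median 0.01). The labels give a light and dark cycle but no hour of collection for each pool.

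Immediate early genes, which respond within minutes to growth factors, stress or nerve activity, were higher. Of 37 tested, 8 rose and none fell, and the median log2 fold change was 0.27. The gene mych, a fish member of the MYC family, had 79.5, 67.3, 74.5 and 72.8 FPKM at 300 µg/L, against 47.4, 49.2, 42.9 and 44.3 in vehicle (0.67, SE 0.09, adjusted p 0.000922). The AP-1 gene fosaa had 6.77, 7.50, 9.50 and 8.36 FPKM at 300 µg/L, against 5.05, 4.96, 5.44 and 4.55 in vehicle (0.58, SE 0.11, adjusted p 0.013). Neither overlapped between the groups. The others were klf6a (0.28, adjusted p 0.0194), fosl2 (0.42, adjusted p 0.0277), the neuronal activity gene npas4a (0.63, adjusted p 0.0393) and the MAP kinase phosphatase genes dusp1 (0.55, adjusted p 0.0406), dusp2 (0.36, adjusted p 0.0302) and dusp6 (0.37, adjusted p 0.0269). Of all 25 dual-specificity phosphatase genes, a family put together after the values were seen, these 3 rose and none fell. None of the 25 was called without exposed replicate 1, 2 or 4 or vehicle replicate 1, 3 or 4, while 1 was without exposed replicate 3. The count of 8 was 1 to 3 without exposed replicate 1, 2 or 4 or vehicle replicate 1, 3 or 4, 5 without exposed replicate 3, and 10 without vehicle replicate 2. It was also 10 in the fit of only the 2 groups. In arsenite at 10 µM against the same vehicle pools, 3 of the 37 were called higher and 0 lower (median 0.23). Between uranyl nitrate at 300 µg/L and arsenite, 0 were called (median 0.03).

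The gene with the smallest p among those that fell was serpinh1b, which encodes the collagen chaperone Hsp47. It had 22.2, 23.2, 23.1 and 21.0 FPKM at 300 µg/L, against 42.2, 43.4, 47.6 and 45.1 in vehicle (-0.96, SE 0.12, adjusted p 0.000337). The exposed pools were at about the same level in all 4 and far below vehicle. Its paralog serpinh1a fell by less (-0.31, adjusted p 0.0493), with a call that was kept only without vehicle replicate 2. In the list of cartilage, bone and collagen processing genes, these were the 2 of 51 that fell, and acana, the cartilage proteoglycan aggrecan, was the 1 that rose (0.31, adjusted p 0.0269). The median of that list was -0.10.

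In the heat shock list, 3 of 36 genes fell, none rose, and the median was -0.175. Besides serpinh1b these were both partners of the HSP90 chaperone. The gene ahsa1b, which encodes an activator of the HSP90 ATPase, had 16.2, 17.6, 18.2 and 16.6 FPKM at 300 µg/L, against 23.1, 20.3, 22.99 and 21.7 in vehicle (-0.35, SE 0.06, adjusted p 0.0076). The cochaperone gene fkbp4 had 41.5, 42.5, 42.5 and 45.007 FPKM at 300 µg/L, against 55.6, 50.6, 52.8 and 54.2 in vehicle (-0.31, SE 0.06, adjusted p 0.0142). From outside the list, cdc37, which loads kinases onto HSP90, fell (-0.22, adjusted p 0.0179), and the cochaperone gene sgtb rose (0.32, adjusted p 0.0102). Among 21 genes of HSP90 and its cochaperones, a family also put together after the values were seen, 3 fell and 1 rose. Of the 3, 1 was left without vehicle replicate 1 or 4 and 1 in the fit of only the 2 groups, where sgtb was lost. The heat shock count was 6 without vehicle replicate 2.

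Other genes chosen by the smallest p had varied roles. Those that rose included oga, whose enzyme removes O-linked N-acetylglucosamine from proteins (0.46, SE 0.06, adjusted p 0.000922), and csrnp1b (0.50, SE 0.07, adjusted p 0.00196). Those that fell included hexim1, an inhibitor of the elongation kinase P-TEFb (-0.27, adjusted p 0.00904), the calpain protease gene capn9 (-0.50, adjusted p 0.00891), the protein modifier gene sumo3b (-0.42, adjusted p 0.0129) and nudt21, a factor that selects messenger RNA ends (-0.34, adjusted p 0.0129). Among symbols that are still provisional, si:dkey-85k7.7 (1.24, adjusted p 0.00249), si:ch73-141c7.1 (1.095, adjusted p 0.00687) and zgc:122979 (0.63, adjusted p 0.00627) rose. The provisional genes zgc:113442 (-0.57, adjusted p 0.0117) and si:dkey-14d8.1 (-0.28, adjusted p 0.0269) fell.

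Among p53 response genes, 4 of 29 rose and none fell, with a list median of 0.10. The cyclin-dependent kinase inhibitor gene cdkn1d had 50.2, 61.9, 50.0 and 53.4 FPKM at 300 µg/L, against 33.4, 39.8, 40.3 and 40.5 in vehicle (0.47, SE 0.09, adjusted p 0.0102). The exposed pools were all higher, and the call was lost without vehicle replicate 1, the lowest pool (adjusted p 0.0508). The growth arrest genes gadd45bb (0.55, adjusted p 0.0254) and gadd45ba (0.58, adjusted p 0.0457) and the already named sesn1 made up the rest. The list's count was 0 without vehicle replicate 1, 6 without vehicle replicate 2 and 1 to 3 without any other single library. In arsenite at 10 µM against the same vehicle pools, 1 gene of this list was called higher and 0 lower (median 0.11). At an unadjusted p under 0.05, 11 genes were higher and 3 lower at 300 µg/L, and 12 higher and 0 lower in arsenite. Over all 22682 genes tested, 1646 were higher and 2108 lower at that p at 300 µg/L. In arsenite 1381 were higher and 965 lower.

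Several genes of the contractile apparatus and of calcium release were higher. Of 77 muscle genes, 7 rose and none fell, while the median of the list was 0.02. They were the calcium release channel genes ryr3 (0.47, SE 0.09, adjusted p 0.0124) and ryr1b (0.32, adjusted p 0.0406), the titin genes ttn.1 (0.40, adjusted p 0.0129) and ttn.2 (0.37, adjusted p 0.0187), tnnc1a, myom2b and jph2. For ttn.1 the pools had 33.6, 29.8, 31.2 and 28.9 FPKM at 300 µg/L, against 21.4, 25.6, 21.2 and 24.4 in vehicle. No muscle gene was called without vehicle replicate 1, 1 was without vehicle replicate 3, 10 were without vehicle replicate 2, and 3 were without any 1 exposed replicate or vehicle replicate 4. None was called in the fit of only the 2 groups.

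Of 35 kidney tubule and phosphate genes tested in these whole larvae, 2 salt transporter genes were higher and none was lower. The sodium, potassium and chloride cotransporter gene slc12a1 had 4.65, 4.56, 3.94 and 3.93 FPKM at 300 µg/L, against 2.43, 3.29, 2.11 and 2.96 in vehicle (0.52, SE 0.09, adjusted p 0.00857). The sodium chloride cotransporter gene slc12a3 had 9.16, 7.12, 6.98 and 7.62 FPKM at 300 µg/L, against 4.37, 6.19, 3.87 and 4.61 in vehicle (0.61, SE 0.12, adjusted p 0.0129). Neither gene overlapped between the groups, and the median of the list was 0.07. The call of slc12a3 was lost without vehicle replicate 1 or 3 (adjusted p of at most 0.0571). Neither was called in the fit of only the 2 groups. In arsenite at 10 µM against vehicle, 1 gene of this list was called higher and none lower, with a median of 0.06. At an unadjusted p under 0.05, 7 genes were higher and 1 lower at 300 µg/L, and 10 higher and 0 lower in arsenite. Between uranyl nitrate at 300 µg/L and arsenite, none was called higher and 1 lower (median -0.015).

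Genes of low oxygen, inflammation, gut and nerve tissue gave few calls. At an unadjusted p under 0.05, 14 of 39 hypoxia genes were higher and 0 lower, with a median of 0.11. Over all 22682 genes tested, 1646 were higher and 2108 lower at that p. The stress gene ndrg1b, 1 of 39 hypoxia genes called, had 43.1, 70.19, 49.1 and 49.6 FPKM at 300 µg/L, against 27.2, 27.2, 33.6 and 21.1 in vehicle (0.93, SE 0.18, adjusted p 0.0129). Its call was lost without vehicle replicate 4 (adjusted p 0.0613). The cytokine signal inhibitor gene socs3a had 30.4, 27.9, 26.1 and 27.8 FPKM at 300 µg/L, against 18.7, 16.8, 15.2 and 11.3 in vehicle (0.84, SE 0.17, adjusted p 0.0187), and with nfkbiaa (0.48, adjusted p 0.0415) and stat3 (0.34, adjusted p 0.0451) it made 3 of 34 inflammation genes. That count was 0 without exposed replicate 1 or 4 or vehicle replicate 3 or 4, and 1 without exposed replicate 2 or 3 or vehicle replicate 1. In the fit of only the 2 groups it was 3. None of 22 genes of neutrophils and macrophages was called by limma on FPKM or by voom, and none had an unadjusted p under 0.05.

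Of the gut list, 2 of 32 genes rose. They were fabp2, an intestinal fatty acid binding protein gene (0.60, adjusted p 0.0129), and cdhr2, a protocadherin gene of the brush border (0.29, adjusted p 0.0382). Neither was called without vehicle replicate 4 or in the fit of only the 2 groups. The list's count was 1 without any 1 exposed replicate or without vehicle replicate 1 or 3. Of 66 peptide hormone and neuropeptide genes, adcyap1b (0.22, adjusted p 0.0355), calca (0.42, adjusted p 0.0393) and sst6.1 (0.27, adjusted p 0.0396) rose and none fell. None of these was called without exposed replicate 2 or 4 or vehicle replicate 1, 3 or 4, or without a variance trend. At an unadjusted p under 0.05, 18 of the 66 were higher and 1 lower, with a median of 0.13. The glutamine synthetase gene glula was the 1 of 54 neuron and glia genes called (0.40, adjusted p 0.0302). The photoreceptor gene guca1c was the 1 of 61 in its list (0.39, adjusted p 0.0209). Both calls were lost without exposed replicate 4 or vehicle replicate 1 or 4. That of glula was also lost without exposed replicate 2 or vehicle replicate 3, and that of guca1c without exposed replicate 1. Transcription factor genes of the developing eye and brain, picked after their values were seen, included six7 (0.35, adjusted p 0.0129), six6b (0.34, adjusted p 0.0129), foxg1b (0.41, adjusted p 0.0129), gsx1 (0.49, adjusted p 0.0194) and neurod1 (0.22, adjusted p 0.0258), all higher, and the proneural gene ascl1b, which was lower (-0.48, adjusted p 0.0316).

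In sterol and fatty acid synthesis 32 of 42 genes had a negative fold change, and 18 were lower and 2 higher at an unadjusted p under 0.05. The acetyl-CoA carboxylase gene acacb rose (0.38, SE 0.07, adjusted p 0.0129) as the only called gene of this list, whose median was -0.20, and its call was lost without exposed replicate 4 or vehicle replicate 1 or 4. Without vehicle replicate 2, 9 genes of that list were called lower. Some genes of mitochondrial breakdown of fatty and branched acids were picked after their values were seen, and no family of them was put together. The picked genes eci2 (-0.27, adjusted p 0.0334), hadhab (-0.29, adjusted p 0.0472), hadh (-0.22, adjusted p 0.0274) and acadsb (-0.24, adjusted p 0.0274) were lower. In nuclear-encoded respiratory chain genes, cox7a2a (-0.24, adjusted p 0.0461) was the only 1 of 102 called. The median of that list was -0.11, 84 of the 102 were negative, 36 were lower at an unadjusted p under 0.05, and the call of cox7a2a was lost in each of the 8 fits without 1 library.

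The proteasome genes psma8 (-0.22, adjusted p 0.0226), psmc3 (-0.22, adjusted p 0.0461) and psmb5 (-0.24, adjusted p 0.0468) fell among 56 tested, with a median of -0.13. Without vehicle replicate 2 this count was 11, and without exposed replicate 3 it was 1. It was 0 without any other single library of these groups. The skin genes ppl (-0.27, adjusted p 0.0283) and evplb (-0.21, adjusted p 0.0431), which encode cross-linkers of the cell cortex, were the 2 called of 34, and cyp4v2a (-1.005, adjusted p 0.0334) and cyp8b1.1 (-0.35, adjusted p 0.0472) the 2 called of 70 cytochrome P450 genes. Of 45 glucuronosyltransferase and sulfotransferase genes, ugt1a7 was the 1 called, and it was lower. No skin gene was called without exposed replicate 1, 2 or 4 or vehicle replicate 1 or 4, and no cytochrome P450 gene without exposed replicate 2, 3 or 4 or vehicle replicate 1, 3 or 4.

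Lists on metals and oxidants had no call. None of 45 antioxidant and NRF2 genes passed with limma on FPKM or with voom. At an unadjusted p under 0.05 there were 1 higher and 12 lower, and the list median was -0.09. The superoxide dismutase gene sod1 came nearest, with 141.4, 134.4, 146.4 and 133.5 FPKM at 300 µg/L, against 161.5, 146.4, 172.6 and 160.5 in vehicle (-0.20, adjusted p 0.0545). Without exposed replicate 3, 3 genes of this list were called lower, and without vehicle replicate 2, 4 were. Of 30 metal and iron handling genes none passed with either method, with 1 higher and 2 lower at an unadjusted p under 0.05. The smallest p was that of the copper chaperone gene atox1 (-0.18, adjusted p 0.111).

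No gene of the other 10 lists below was called with either method, and the member closest to the threshold is named for each. For protein folding and amino acid stress (38 genes) this was trib3 (0.43, adjusted p 0.0579), and 2 genes were higher and 6 lower at an unadjusted p under 0.05. For ribosome biogenesis (61 genes, 5 higher and 6 lower at that p) it was dkc1 (-0.20, adjusted p 0.0598). For secreted proteins of the liver (42 genes, 1 higher and 10 lower) it was apoc1 (-0.46, adjusted p 0.0953), and for the exocrine pancreas (31 genes, 3 higher and 1 lower) cela1.1 (0.64, adjusted p 0.0708). Without vehicle replicate 2, 5 liver genes, 1 of ribosome biogenesis and 2 of protein folding stress were called, as were 3 of the retinoid cycle and 1 of skin ionocytes, lists described next. Without exposed replicate 3, 1 gene of protein folding stress was called.

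For skin ionocytes (22 genes, 3 higher and 1 lower at an unadjusted p under 0.05) the smallest p was that of slc12a10.2 (0.50, adjusted p 0.0792). For the retinoid cycle (33 genes, 4 and 4) it was rdh20 (0.62, adjusted p 0.0642), for red blood cells (38 genes, 4 higher and 3 lower) klf17 (0.28, adjusted p 0.113) and for hair cells (26 genes, 3 higher and 2 lower) tmc2b (0.36, adjusted p 0.128). Lens crystallins (48 genes, none higher and 2 lower) had crybg2 (-0.17, adjusted p 0.21), and neutrophils and macrophages had npsn (0.21, adjusted p 0.309). The median lens crystallin lay between -0.49 and 0.62 log2 units from the vehicle mean in the exposed pools and between -0.35 and 0.22 in the vehicle pools.

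**Figure D4:**
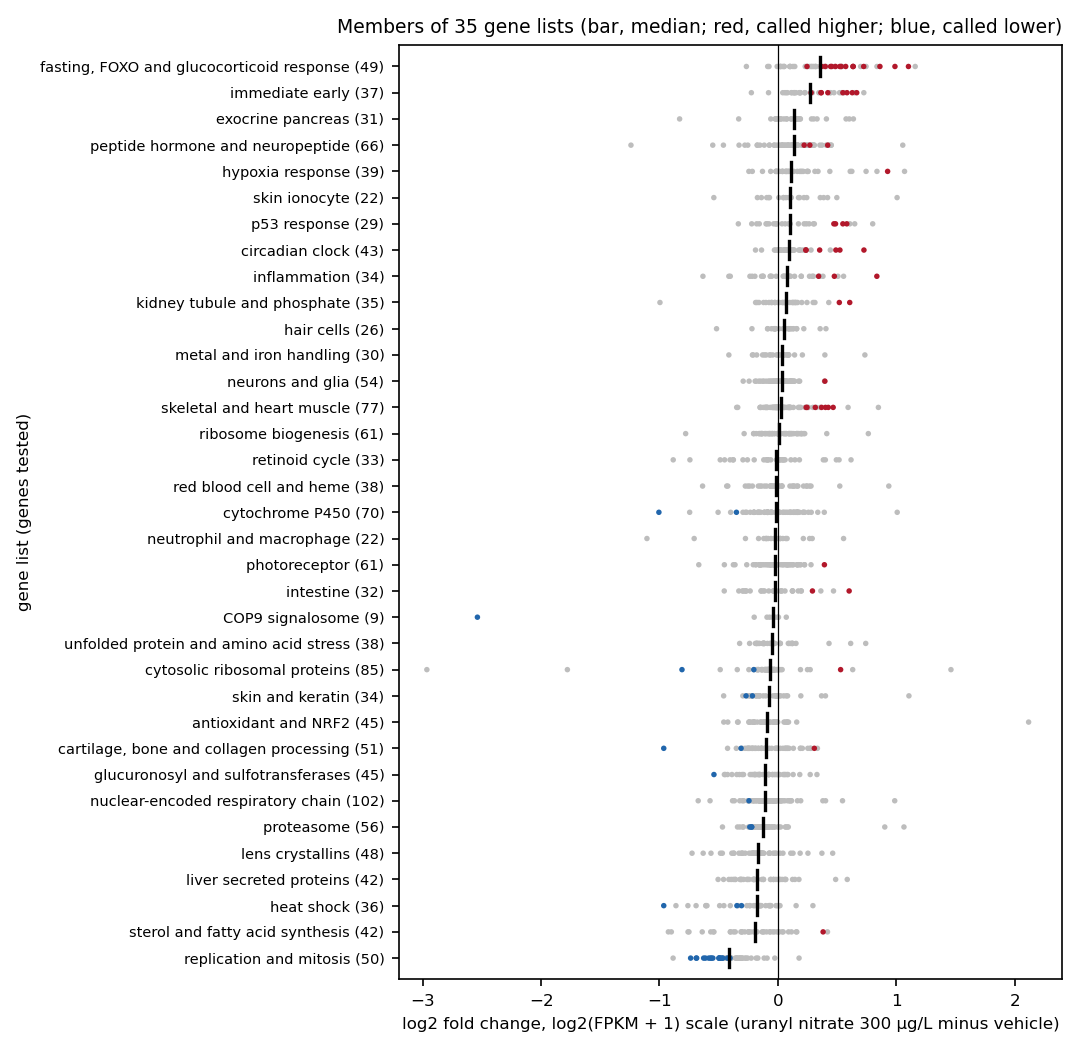
Log2 fold changes of uranyl nitrate at 300 µg/L over vehicle for each tested member of 35 gene lists, sorted by the list median (black bar). Red points were called higher, blue points lower and grey points neither. The fasting, FOXO and glucocorticoid response list at the top has its median at 0.355 and the replication and mitosis list at the bottom at -0.41.

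The 3 genes with the most negative fold changes among those named varied widely between single pools of the series. The COP9 signalosome subunit gene cops8 had 0.245, 0.889, 0.26 and 0.38 FPKM at 300 µg/L, against 6.76, 8.07, 7.53 and 6.76 in vehicle (-2.54, SE 0.58, adjusted p 0.0302). The groups were far apart, but low pools also occurred at 30 µg/L (0.361, 8.26, 6.67 and 0.513 FPKM) and at 10 µM arsenite (0.359, 0.794, 5.99 and 2.49 FPKM). It was the 1 of 9 COP9 genes called, and its call was kept in 1 of the 8 fits without 1 library, the fit without vehicle replicate 2.

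For pbdc1 the pools had 0.316, 0.188, 0.351 and 0.37 FPKM at 300 µg/L, against 7.16, 5.202, 5.49 and 0.25 in vehicle (-1.79, SE 0.44, adjusted p 0.0431). Here vehicle replicate 4 was as low as the exposed pools, and all 4 pools at 30 µg/L were low as well, at 0.274 to 0.46 FPKM. The gene zgc:103692 (-1.59, adjusted p 0.0468) likewise overlapped, with exposed replicate 2 at 2.41 FPKM and vehicle replicate 2 at 1.85 FPKM.

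Among 85 cytosolic ribosomal protein genes, rps13 had 250.1, 336.7, 554.4 and 327.0 FPKM at 300 µg/L, against 595.1, 610.1, 654.0 and 611.2 in vehicle (-0.81, SE 0.17, adjusted p 0.0187). Exposed replicate 3 was close to the vehicle pools and the other exposed pools were well below. The other calls were rpl26, lower (-0.20, adjusted p 0.0451), and rps15, higher (0.53, adjusted p 0.0468) with overlapping groups, while the list median was -0.07. The call of rps13 was kept only without exposed replicate 3 or vehicle replicate 2, and that of rps15 without exposed replicate 4 or vehicle replicate 1.

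The higher dose was then set against the lower, 30 µg/L, to ask which genes differed between the doses. The difference uses the same exposed pools at 300 µg/L and no vehicle mean, although the vehicle pools share in the estimate of the spread. It called 596 genes higher (2.63%) and 913 lower (4.03%) at 300 µg/L than at 30 µg/L, and before adjustment 4746 genes were below 0.05. Against vehicle, 30 µg/L had 0 genes called higher and 0 lower, so the count between the doses is not a count of changes over vehicle. On the first principal component the pools at 30 µg/L lay at -18.9 to -7.81, at the far end from those at 300 µg/L, and the vehicle pools at -8.88 to 7.34. The count was 774, 790 and 520 without 300 µg/L replicate 1, 2 or 4, and 970, 465 and 715 without 30 µg/L replicate 2, 3 or 4.

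In this test 34 of the 50 replication and mitosis genes were lower at 300 µg/L than at 30 µg/L and none was higher (median -0.49). At 30 µg/L over vehicle the list leaned the other way, with 42 genes above 0, 8 below 0 and a median of 0.09. For cdk2 the difference was -0.77 (adjusted p 0.00247), for pcna -0.67 (adjusted p 0.0052) and for cdc20 -0.67 (adjusted p 0.00325). Over vehicle, the log2 fold changes of cdk2 were 0.08 at 30 µg/L and -0.69 at 300 µg/L, and those of pcna were 0.10 and -0.57.

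Of the 49 fasting, FOXO and glucocorticoid response genes, 27 were higher at 300 µg/L than at 30 µg/L and none was lower (median 0.36). The difference was 0.73 for arrdc3b (adjusted p 0.00122), 0.76 for arrdc2 (adjusted p 0.00162) and 0.86 for klf9 (adjusted p 0.0052). At 30 µg/L over vehicle the log2 fold changes were 0.37 for arrdc3b, 0.10 for arrdc2 and -0.14 for klf9. For the kidney transporter genes the difference between the doses missed the threshold, at 0.11 for slc12a1 (adjusted p 0.546) and 0.25 for slc12a3 (adjusted p 0.213), and at 30 µg/L they were 0.41 and 0.35 over vehicle. The clock gene nr1d1 (0.35, adjusted p 0.000197) and the collagen chaperone gene serpinh1b (-0.84, adjusted p 0.00147) did differ between the doses.

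The comparison with sodium arsenite at 10 µM asked where the higher dose of uranyl nitrate differs from that of the other metal. Again the vehicle pools enter the spread only. Relative to arsenite, 69 genes were higher (0.304%) and 164 were lower (0.723%) in uranyl nitrate at 300 µg/L, and 3014 had an unadjusted p below 0.05. The number of calls was 139, 106 and 111 without uranyl nitrate replicate 1, 2 or 4 and 91, 120 and 145 without arsenite replicate 1, 3 or 4.

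Several genes of glutathione and electrophile handling were lower in uranyl nitrate than in arsenite. Of the 45 antioxidant and NRF2 genes, 17 were lower and 1 was higher in uranyl nitrate than in arsenite, with a median of -0.28. Against vehicle, 11 genes of the list were called higher and 1 lower in arsenite (median 0.15). In uranyl nitrate at 300 µg/L against vehicle none was called (median -0.09). The glutathione transferase gene gsto2 averaged 92.5 ± 5.75 FPKM in uranyl nitrate and 236.3 ± 37.7 in arsenite, a difference of -1.33 (adjusted p 5.52e-09). Of the same 17, the glutathione synthesis gene gclc differed by -0.71 (adjusted p 2.22e-06) and the peroxiredoxin gene prdx1 by -1.02 (adjusted p 6.82e-06). The reductase gene ptgr1.2, from outside that list, differed by -2.27 (adjusted p 4.05e-09). None of these 4 was called in uranyl nitrate against vehicle.

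Values are given here for 4 of the genes that were also called lower than in vehicle. The carbonyl reductase gene cbr1l had 41.6, 38.7, 44.0 and 41.2 FPKM at 300 µg/L, against 52.3, 47.5, 51.3 and 53.6 in vehicle (-0.30, adjusted p 0.0179), and its difference from arsenite was -0.82 (adjusted p 3.02e-08). The glucuronosyltransferase gene ugt1a7 had 6.86, 6.80, 8.19 and 6.69 FPKM at 300 µg/L, against 10.6, 9.68, 10.1 and 13.1 in vehicle (-0.54, adjusted p 0.0254). It differed by -1.25 from arsenite (adjusted p 1.33e-06) and by -1.01 from 30 µg/L (adjusted p 0.000202). The reductase gene ptgr1.1 (-0.59 against vehicle, adjusted p 0.0333) and tstd1 (-0.27, adjusted p 0.0373) completed them, with differences from arsenite of -0.89 and -0.58. Against vehicle, all 4 calls were lost without exposed replicate 4 or vehicle replicate 1, 3 or 4. That of ugt1a7 was also lost without exposed replicate 1 or 2, with voom and in the fit of only the 2 groups.

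Replication genes were lower in uranyl nitrate than in arsenite too, though fewer passed. Of 50 in the list, 5 were lower and none was higher (median -0.35). The called ones included cdk2 (-0.52, adjusted p 0.0396) and pcna (-0.51, adjusted p 0.0482), and from the fork family rpa1 (-0.40, adjusted p 0.00836), rfc4 (-0.45, adjusted p 0.0246), dhfr (-0.50, adjusted p 0.0336) and cdca7a (-0.66, adjusted p 0.0273). For hmgb2a the difference was -0.33 (adjusted p 0.0077).

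Of the fasting, FOXO and glucocorticoid response genes, 2 of 49 were higher in uranyl nitrate than in arsenite and none was lower (median 0.135). One was ddit4 (0.88, adjusted p 0.0336), with 49.7, 53.9, 37.2 and 41.7 FPKM in the arsenite pools, all below the lowest uranyl nitrate pool. The hypoxia gene ndrg1b (0.86, adjusted p 0.0186) differed as well. For arrdc3b, klf9, sgk1 and nr1d1 the difference from arsenite missed the threshold, at 0.25 (adjusted p 0.247), -0.10 (adjusted p 0.849), -0.07 (adjusted p 0.876) and -0.06 (adjusted p 0.545). The difference for serpinh1b was 0.32 (adjusted p 0.22), with pools of 21.0, 19.6, 14.3 and 16.6 FPKM in arsenite.

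**Figure D5:**
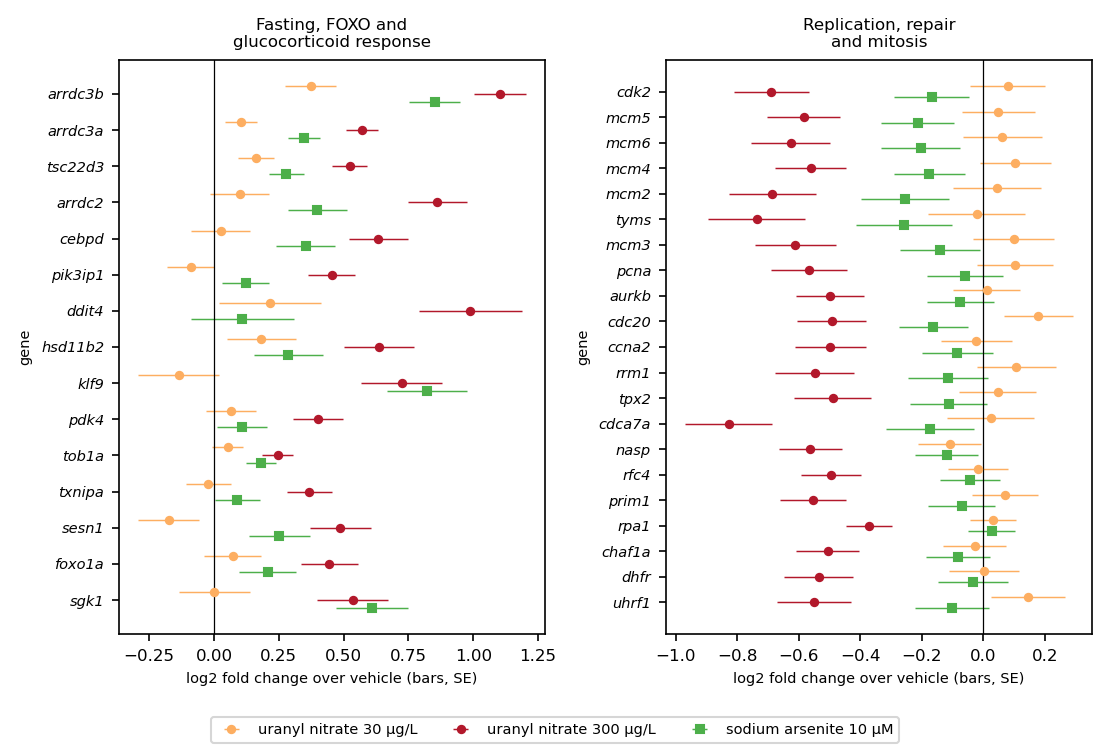
Log2 fold changes over vehicle (bars, SE) of called fasting, FOXO and glucocorticoid response genes (left) and replication, repair and mitosis genes (right) for uranyl nitrate at 30 µg/L (orange), uranyl nitrate at 300 µg/L (red) and sodium arsenite at 10 µM (green). All 3 comparisons share the 4 vehicle pools, and the genes shown were chosen because they were called at 300 µg/L. On the right the points for 300 µg/L lie at -0.83 to -0.37, and on the left klf9 and sgk1 are about as high in arsenite as at 300 µg/L.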

How the data were processed

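The deposited table held FPKM values, made by the authors, for 39974 genes (NCBI Gene numbers) in 24 libraries, of which the 4 at 300 µg/L uranyl nitrate, 4 vehicle, 4 at 30 µg/L and 4 at 10 µM sodium arsenite are described here. No column of per-sample values was unused (0). HISAT2 2.1.0, HTSeq 0.6.1, DESeq2 1.10.1 and the build GRCz11 are named in the submitters' processing notes; annotation, strand setting and the treatment of shared reads are not given in the sources used here, so genes with close copies or antisense partners are uncertain. Symbols came from a RefSeq table (GRCz12tu, names only) and covered 80.2% of the gene numbers and 93.4% of the genes tested.

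Whole reads were recovered from the FPKM steps (100.0% of values above 0 within 0.01 of a whole number), which gave the depth and an effective gene length. Genes with FPKM of at least 0.5 in at least 4 libraries (22682) entered limma 3.58.1 (R 4.3.3) as log2(FPKM + 1), with a variance trend and all 24 libraries in 1 fit of 6 group means (18 residual degrees of freedom, median residual SD 0.138). Tests were two-sided, with Benjamini-Hochberg adjustment per contrast. The fit was tested on simulated data.

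Genes were named by rule: among called genes without overlap, the 12 higher and 12 lower with the smallest p, 3 and 3 with provisional symbols, every called gene whose log2 fold change was 1 or more in size, and up to 4 called members of each of 35 lists (or the member with the smallest p). Some genes that this rule picks are not reported here. The remaining called list members and the genes from outside the lists were chosen after their values were seen. The comparison and the lists were chosen with earlier results of these data known, and no list was tested. Alternatives were pseudocounts, filters, scalings, voom, a replicate block, a fit of 2 groups, no variance trend, a minimum fold change and leaving out each library. Same-numbered libraries did not deviate together (correlation at most 0.099), so replicate numbers were not used as pairs.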

Additional observations from a re-analysis of the deposited data

Results flagged for a closer look

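In 16 of 344 groups of 4 pools looked at for the named genes, 1 pool stood apart from the other 3 by a gap test at the 95% level. Chance flags about 1 in 20 groups. At 300 µg/L, replicate 2 was high for arrdc3b (81.0 FPKM, others 57.2 to 59.6), histh1l1 (709.8 FPKM, others 567.4 to 577.9) and odc1, the ornithine decarboxylase gene (37.3 FPKM, others 20.8 to 23.2), and low for gsx1 (3.68 FPKM, others 4.77 to 4.91). Replicate 1 at this dose was high for ryr3 (38.7 FPKM, others 32.4 to 32.6). Replicate 3 was high for mcm3 (14.9 FPKM, others 11.5 to 12.1), aurkb (7.51 FPKM, others 5.58 to 5.87) and ugt1a7 (8.19 FPKM, others 6.69 to 6.86). Replicate 4 was high for acacb (38.4 FPKM, others 34.7 to 35.1) and klf17 (5.71 FPKM, others 4.53 to 4.68), and low for dusp6 (16.8 FPKM, others 18.1 to 18.2) and psmc3 (37.7 FPKM, others 40.5 to 41.0).

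In vehicle, replicate 1 was low for cdkn1d (33.4 FPKM, others 39.8 to 40.5) and high for rps15 (10.1 FPKM, others 6.88 to 7.11). Vehicle replicate 2 was low for gsx1 (2.39 FPKM, others 3.05 to 3.17) and hmgb2b (150.0 FPKM, others 169.5 to 172.8).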

How the results depend on the processing

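The count of 402 genes in uranyl nitrate at 300 µg/L against vehicle was 96 in a fit of only the 2 groups, 243 without a variance trend, and 7 with a minimum absolute log2 fold change of 1. Against 30 µg/L (1509 genes) that minimum left 28 genes, and against arsenite (233 genes) it left 17, where a fit of only the 2 groups gave 130. Leaving out 1 library gave 63 to 769 genes against vehicle, 465 to 1354 against 30 µg/L and 91 to 294 against arsenite. Pseudocounts, filters, scalings and voom kept all counts within 1.5 times, at 273 to 431 genes against vehicle. The replicate block gave 419, 1425 and 252 genes. No direction of a named called gene was reversed. Of the 152 named called genes, 52 stayed called in the fit of 2 groups, 129 with voom, 135 after rescaling to the same total and 147 after median-of-ratios scaling. Without 1 library, 43 (vehicle replicate 1) to 148 (vehicle replicate 2) stayed called, with 44, 55 and 57 without vehicle replicate 4, exposed replicate 4 and vehicle replicate 3, and the largest adjusted p of any of them without 1 library was 0.174 (sgk1, without vehicle replicate 4). The causes were not tested. The residual SD between pools of the same group was 0.138 on the log2 scale for the median gene. With 4 pools a group, small changes in lists without a call may have been missed.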

Other observations

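Some called genes outside the lists, chosen after their values were seen, were opposed pairs or signal proteins. The polyamine synthesis gene odc1 had 23.2, 37.3, 21.9 and 20.8 FPKM at 300 µg/L, against 18.7, 16.8, 16.8 and 15.5 in vehicle (log2 fold change 0.54, limma adjusted p 0.0472). The gene oaz1b, which encodes an antizyme that targets this enzyme for degradation, had 82.4, 85.1, 85.009 and 83.1 FPKM at 300 µg/L, against 91.5, 93.9, 94.8 and 93.9 in vehicle (-0.15, adjusted p 0.0308). No pool overlapped between the groups in either gene. The call of odc1 was kept only without exposed replicate 3, and that of oaz1b without exposed replicate 3 or vehicle replicate 2.

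The gene mknk2b, whose kinase phosphorylates initiation factor 4E, had 244.7, 240.7, 217.4 and 266.1 FPKM at 300 µg/L, against 142.7, 171.1, 163.9 and 138.6 in vehicle (0.65, SE 0.11, adjusted p 0.00693), and every exposed pool lay above all 20 other pools of the series. The elongation factor 2 kinase gene eef2k (0.28, adjusted p 0.0146) lay above all 20 as well. This held for 23 of the 199 genes called higher and for 54 of all 22682 genes tested. The insulin receptor substrate gene irs2b was 0.32 over vehicle (adjusted p 0.0897) and 0.60 over 30 µg/L (adjusted p 0.00261). Over arsenite, the apolipoprotein gene apoa4b.3 differed by 1.52 (adjusted p 0.00026), the carboxylate transporter gene slc13a2 by 0.68 (adjusted p 0.000334) and the export pump gene abcc5 by 0.25 (adjusted p 0.00646).

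Among 134 splicing and RNA-binding genes, a family put together after the values were seen, 11 fell and none rose in uranyl nitrate at 300 µg/L against vehicle, with a median of -0.08. The splicing factor gene sf3b5 had 19.3, 20.7, 22.005 and 18.9 FPKM at 300 µg/L, against 30.9, 22.9, 28.7 and 29.1 in vehicle (-0.44, adjusted p 0.021). This count was 2 after rescaling to the same total and 6 with voom. It was 0 without exposed replicate 1 or 4 or vehicle replicate 1, 3 or 4, it was 1 and 8 without exposed replicates 2 and 3, and it was 16 without vehicle replicate 2.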
